A study of Mus musculus with 6 samples.

Results

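The vacuolar H+-ATPase (V-ATPase), the lysosomal cathepsins and the LAMP proteins were examined in whole retina after microbead injection. Members were all genes of the deposited count table whose symbol begins with *Atp6v0* or *Atp6v1*, together with *Atp6ap1*, *Atp6ap2*, 12 cathepsin genes, *Lamp1* and *Lamp2*, without symbols marked as pseudogenes. This gave 37 of the 31169 genes in the table, of which 32 had enough counts to be tested. They comprised 12 genes for V1 subunits, 9 for V0 subunits, 2 for accessory subunits, 12 for cathepsins and 2 for LAMP proteins.

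The 6 libraries came from whole retinas of male C57BL/6 mice. At 1 month of age the mice received an intracameral injection, by the labels 1 μl, of saline (3 libraries) or of microbeads 15 μm in diameter (3 libraries). The paper's methods give a larger volume and state that both eyes were injected in both groups. Retinas were taken 4 weeks later, at 2 months of age, and no naïve retina was included here. In this model the beads occlude the outflow of aqueous humor and raise intraocular pressure. The labels name no transgene or drug in either group. The labels do not say whether the retinas of a group came from separate mice, so the p-values measure the spread between these samples.

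The V-ATPase is a rotary proton pump built of a cytosolic V1 sector, which hydrolyzes ATP, and a membrane V0 sector, which conducts protons. In neurons it acidifies lysosomes, and it also acidifies synaptic vesicles, where the proton gradient drives loading of neurotransmitter. Lysosomal acidity in turn permits the cathepsins to mature and to degrade protein, and LAMP1 and LAMP2 are abundant glycoproteins of the lysosomal membrane.

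The saline libraries were deeper (36085737 to 46481382 counts) than the microbead libraries (13574949 to 19834366 counts). The library names in the sample descriptions form 1 series for saline and a separate one for microbeads, while the sample titles run on across both groups. Whether either series marks a preparation or sequencing run was not established. Such a difference and the effect of the injection cannot be told apart. Markers of retinal neurons were present in every library, and 10 of them summed to 47451 CPM or more, with 1 of the 10 higher and 1 lower past the threshold. CPM are counts relative to library size, scaled by edgeR's TMM method. Some libraries stood apart in markers of other cells. The 11 microglia genes summed to 230 CPM in saline replicate 1 against 54.5 to 130 CPM elsewhere. For 10 pigment epithelium genes the sums were 14.2, 59.7 and 256 CPM in saline and 137, 115 and 125 CPM in microbead replicates 1 to 3. The 6 lens genes summed to 281 CPM in saline replicate 3 against 21.1 CPM or less elsewhere. The 9 Müller glia genes summed to 6753 to 10249 CPM in saline and 5291 to 6618 CPM in microbead retinas, and 3 of the 9 passed the test, all lower. The 7 endothelial genes summed to 454 to 655 CPM and 280 to 429 CPM, and 3 of the 7 were lower past the threshold. Mitochondrial genes took 3.19% to 3.57% of the counts in saline and 8.90% to 10.6% in microbead libraries. None of the microglia, Müller glia, pigment epithelium and endothelial markers was at 0 in all 6 libraries. With mitochondrial genes left out of the library sizes, the same 5 members were called as with them. The part of the cell markers in the results for the V-ATPase and lysosomal genes was not tested.

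Among the 32 tested members, 5 changed after microbead injection at an adjusted p-value under 0.05 in edgeR's quasi-likelihood test, and all 5 encode V1 subunits. *Atp6v1b2*, *Atp6v1h* and *Atp6v1a* fell by 47.9% to 52.0%, while *Atp6v1d* and *Atp6v1g2* rose. The 5 called members are 15.6% of those tested, against 12.8% of all 17707 tested genes, so the number of calls is near the background. Within the V1 class they are 5 of 9 tested genes, and no other class held a call. By direction, 2 were higher and 3 lower, against 6.46% and 6.31% of all tested genes. The median log2 fold change (microbead minus saline) was -0.20 over the 32 members and -0.03 over all tested genes. Of the 32, 23 had a negative and 9 a positive fold change. The CPM of the groups did not overlap for 10 members, 3 higher and 7 lower, a share of 31.2% against 37.8% of all tested genes (18.8% higher and 18.9% lower). In whole retina, fewer cells of a type and less RNA per cell cannot be told apart.

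**Figure D1:**
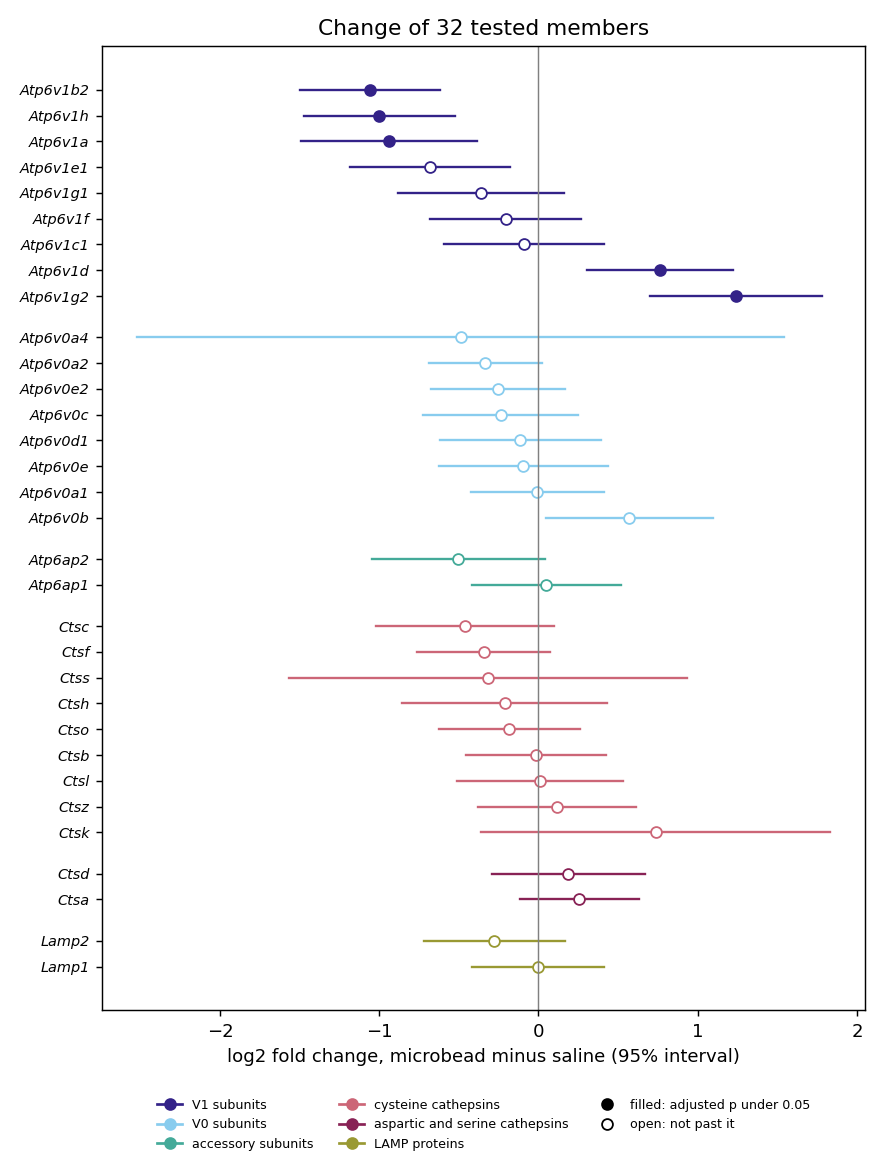
Log2 fold change (microbead minus saline, horizontal axis) of the 32 tested members, grouped by class on the vertical axis, with lines for the 95% interval of the edgeR fit. Filled points, adjusted p-value under 0.05, occur in the V1 class alone, from -1.06 for *Atp6v1b2* to 1.24 for *Atp6v1g2*, and the interval of *Atp6v0a4*, a gene of few counts, is the widest.

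The A and B subunits alternate in the catalytic head of V1, and the A subunit binds and hydrolyzes ATP. *Atp6v1b2* (ENSMUSG00000006273.14), the B isoform of brain and most other tissues, was measured at 509, 589 and 750 CPM in the saline retinas and 332, 271 and 284 CPM in the microbead retinas. Each microbead retina lay below each saline retina. Its means were 616 ± 122 and 296 ± 32.2 CPM (SD, n = 3 each), and the log2 fold change was -1.06 (standard error, SE, 0.20, edgeR adjusted p = 0.0161), so that it fell by 52.0%. *Atp6v1a* (ENSMUSG00000052459.13), the only gene for the A subunit, was at 292, 384 and 561 CPM in saline and 247, 211 and 187 CPM in microbead retinas. The groups again did not overlap, although saline replicate 1 was the nearest to the microbead retinas. Means of 413 ± 137 and 215 ± 30.0 CPM (SD, n = 3 each) gave a log2 fold change of -0.94 (SE 0.25, edgeR adjusted p = 0.0389).

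*Atp6v1h* (ENSMUSG00000033793.12) encodes the H subunit, which couples ATP hydrolysis to proton transport and silences V1 once it has left the membrane. It was measured at 101, 107 and 151 CPM in saline and at 71.2, 52.9 and 55.1 CPM in microbead retinas, without overlap. The log2 fold change was -1.0004 (SE 0.21, edgeR adjusted p = 0.0218), a 2.00-fold lower level. Its exons share 127 bases with *Rgs20* on the opposite strand, and *Rgs20* had a log2 fold change of 0.49 (edgeR adjusted p = 0.103), the opposite direction.

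The D subunit forms the central rotor shaft of V1 with the F subunit. *Atp6v1d* (ENSMUSG00000021114.8) was at 84.2, 95.6 and 105 CPM in saline and at 206, 138 and 139 CPM in microbead retinas. Every microbead retina exceeded every saline retina, with microbead replicate 1 the highest. The log2 fold change was 0.76 (SE 0.20, edgeR adjusted p = 0.0411), an increase of 69.5%. Its rotor partner *Atp6v1f* had a log2 fold change of -0.21 (95% interval -0.68 to 0.26, edgeR adjusted p = 0.538), with overlapping groups.

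The G subunit, with the E subunit, makes the peripheral stalks that hold the head still against the rotor. *Atp6v1g2* (ENSMUSG00000024403.16), the G isoform enriched in neurons, was measured at 81.8, 123 and 150 CPM in saline and at 330, 241 and 269 CPM in microbead retinas. The lowest microbead value was well above the highest saline value. Means of 118 ± 34.2 and 280 ± 45.8 CPM (SD, n = 3 each) gave a log2 fold change of 1.24 (SE 0.24, edgeR adjusted p = 0.0174), a 2.37-fold higher level. Among the members it had the largest change in absolute terms. Its exons share 144 bases with *Nfkbil1* on the opposite strand, which was at 8.45 to 15.7 CPM with a log2 fold change of -0.01 (edgeR adjusted p = 0.981).

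**Figure D2:**
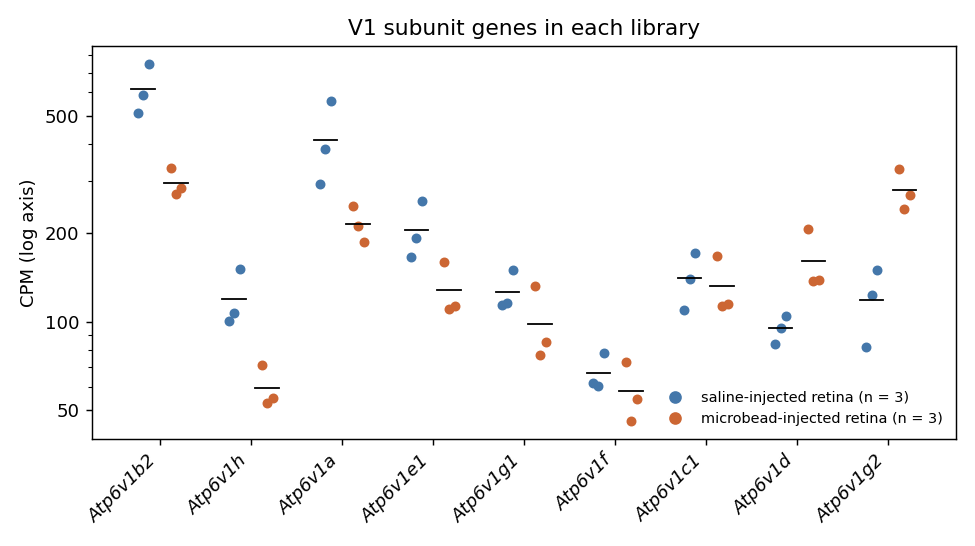
Level (CPM, log axis) of the 9 tested V1 subunit genes in each library, with 3 saline-injected retinas in blue, 3 microbead-injected retinas in orange and a bar at each group mean. The orange points lie below the blue ones for *Atp6v1b2*, *Atp6v1h*, *Atp6v1a* and *Atp6v1e1*, and above them for *Atp6v1d* and *Atp6v1g2*.

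The genes lie apart in the genome (GRCm38, GENCODE vM21). *Atp6v1b2* is on chromosome 8 from 69088646 to 69113711, *Atp6v1a* on chromosome 16 from 44085402 to 44139705, *Atp6v1h* on chromosome 1 from 5070018 to 5162529, *Atp6v1d* on chromosome 12 from 78840725 to 78861638 and *Atp6v1g2* on chromosome 17 from 35233660 to 35238767. All 5 are annotated as protein-coding. Their exons cover 5305, 6044, 9746, 4602 and 2510 bases, in the same order, so that the 3 genes that fell have longer exon sequence than the 2 genes that rose. Across the 32 tested members, Spearman's correlation between log2 fold change and exon length was -0.30, and across 17643 tested genes with a length it was -0.14. With GC content it was 0.43 across the members and 0.0029 across the same genes, all given as descriptions. With an offset for GC content and length in the fit, chosen after seeing the data, all 5 genes were called in the same direction, with log2 fold changes of -1.02 for *Atp6v1b2*, -0.88 for *Atp6v1a*, -0.87 for *Atp6v1h*, 0.74 for *Atp6v1d* and 1.09 for *Atp6v1g2*, and *Atp6v1e1* was called as well (-0.71, edgeR adjusted p = 0.0469).

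The promoters of 3 called V1 genes are shown because they moved in opposite directions, *Atp6v1a* lower and *Atp6v1d* and *Atp6v1g2* higher. The sequences are those of RefSeq on GRCm38.p6, from 250 bases before to 50 bases after an annotated start, 5′ to 3′ on the strand of the gene, and capitals mark TCACGTGA. This motif is the inner part of the element to which TFEB and its relatives, transcription factors of lysosomal genes, are known to bind. They lie at chr16:44139210-44139509 on the reverse strand, chr12:78861589-78861888 on the reverse strand and, for the 2 starts listed for *Atp6v1g2*, chr17:35234760-35235059 and chr17:35236346-35236645 on the forward strand.
*Atp6v1a*: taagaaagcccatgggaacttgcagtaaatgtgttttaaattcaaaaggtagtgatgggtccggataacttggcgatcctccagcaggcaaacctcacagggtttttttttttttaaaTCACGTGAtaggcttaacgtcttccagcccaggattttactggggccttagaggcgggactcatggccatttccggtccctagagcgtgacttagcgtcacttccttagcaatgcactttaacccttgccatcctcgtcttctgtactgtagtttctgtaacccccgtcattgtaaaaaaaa
*Atp6v1d*: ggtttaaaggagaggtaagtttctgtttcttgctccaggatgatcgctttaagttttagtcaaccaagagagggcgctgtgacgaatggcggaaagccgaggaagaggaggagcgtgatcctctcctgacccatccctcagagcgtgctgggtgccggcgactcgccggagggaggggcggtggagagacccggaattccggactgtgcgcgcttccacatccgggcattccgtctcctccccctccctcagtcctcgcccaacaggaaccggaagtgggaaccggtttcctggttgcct
*Atp6v1g2*, upstream start: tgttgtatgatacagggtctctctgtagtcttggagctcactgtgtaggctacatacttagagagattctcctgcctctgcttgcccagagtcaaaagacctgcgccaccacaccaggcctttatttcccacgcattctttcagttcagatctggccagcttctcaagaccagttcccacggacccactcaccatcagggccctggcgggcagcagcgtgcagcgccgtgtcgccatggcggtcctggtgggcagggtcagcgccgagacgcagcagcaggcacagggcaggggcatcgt
*Atp6v1g2*, downstream start: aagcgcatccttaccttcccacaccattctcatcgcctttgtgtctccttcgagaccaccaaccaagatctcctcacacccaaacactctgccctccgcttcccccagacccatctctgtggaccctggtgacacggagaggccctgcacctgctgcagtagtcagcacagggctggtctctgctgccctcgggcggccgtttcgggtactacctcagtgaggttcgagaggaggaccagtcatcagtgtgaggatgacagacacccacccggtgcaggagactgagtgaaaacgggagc

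TCACGTGA, which reads the same on both strands, was found in the promoters of 5 of the 28 members with a RefSeq promoter in the table used, 17.9%, against 1.12% of the 27025 genes with one. The full palindromic element, which has a further G before and C after these letters, was in 0 of the 28 and in 0.370% of all genes. CACGTG, contained in both, was in 9 of the 28 (32.1%) and in 8.09% of all genes. Promoters of *Atp6v0a2*, *Atp6v0d2*, *Atp6v1b2*, *Atp6v1c1*, *Atp6v1g1*, *Atp6v1h*, *Ctsb*, *Ctse* and *Ctsh* were not analysed here. The 5 genes with TCACGTGA did not move together. *Atp6v1a* fell, while *Atp6v0d1*, *Atp6v0e*, *Ctsa* and *Ctsd* had log2 fold changes of -0.11, -0.09, 0.26 and 0.19, none past the threshold. Stretches around the motif are shown to compare its setting, and the motif begins at position -132 from the annotated start in *Atp6v1a*, -99 in *Ctsd*, -13 in *Ctsa*, where a further copy follows, -4 in *Atp6v0d1* and 2 in *Atp6v0e*. A match is a description of the letters and not a site of binding.
*Atp6v1a*, chr16:44139364-44139411, reverse strand: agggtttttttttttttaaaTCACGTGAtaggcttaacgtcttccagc
*Ctsd*, chr7:142387899-142387946, reverse strand: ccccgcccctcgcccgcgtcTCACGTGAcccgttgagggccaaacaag
*Ctsa*, chr2:164833740-164833787, forward strand: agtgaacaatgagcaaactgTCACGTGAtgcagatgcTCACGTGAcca
*Atp6v0d1*, chr8:105566041-105566088, reverse strand: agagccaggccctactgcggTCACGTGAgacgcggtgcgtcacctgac
*Atp6v0e*, chr17:26676378-26676425, forward strand: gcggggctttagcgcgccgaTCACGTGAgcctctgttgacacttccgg

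The other tested V1 genes did not pass the threshold. *Atp6v1e1*, the main E isoform, came closest, at 165, 192 and 257 CPM in saline and 160, 110 and 113 CPM in microbead retinas. Its groups did not overlap, and the log2 fold change was -0.68 (SE 0.22, edgeR adjusted p = 0.0736). It did pass in DESeq2 (adjusted p = 0.0372). *Atp6v1g1*, the widely expressed G isoform, was at 114, 115 and 150 CPM in saline and 133, 77.3 and 85.4 CPM in microbead retinas (log2 fold change -0.36, 95% interval -0.88 to 0.16). *Atp6v1c1*, whose product joins the stalks to V0 and is released when the pump comes apart, was at 110, 140 and 172 CPM in saline and 167, 114 and 115 CPM in microbead retinas (log2 fold change -0.09, 95% interval -0.60 to 0.41). Both overlapped between the groups.

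The number of V1 genes called changed with the library left out. When saline replicate 1 was left out, 5 members were called, of which 4 were among the calls above. Leaving out saline replicate 3 gave 3 calls, microbead replicate 1 gave 2 and microbead replicate 2 gave 1. Leaving out saline replicate 2 or microbead replicate 3 gave 0. In all 6 of these fits the 5 genes kept their directions. The log2 fold change ranged from -1.18 to -0.89 for *Atp6v1b2*, from -1.15 to -0.80 for *Atp6v1h*, from -1.14 to -0.66 for *Atp6v1a*, from 0.54 to 0.88 for *Atp6v1d* and from 1.03 to 1.45 for *Atp6v1g2*. *Atp6v1d* was past the threshold in 0 of the 6 fits and *Atp6v1a* in 1, while each of the others was in 3. Without saline replicate 3, the library highest in lens and pigment epithelium markers, *Atp6v1b2*, *Atp6v1h* and *Atp6v1g2* were called. In that fit the pigment epithelium sums of the remaining saline libraries (14.2 and 59.7 CPM) lay below those of the microbead libraries (115 to 137 CPM).

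Ratios between members within a library do not depend on how libraries were scaled, and the pairs given here were chosen after the values were seen. Levels were divided by the length of the annotated exons to give RPKM, that is, CPM per kilobase. Among the 3 genes that fell, the RPKM ratio of *Atp6v1b2* to *Atp6v1a* was 1.75 ± 0.23 in saline and 1.58 ± 0.14 in microbead retinas, and that of *Atp6v1h* to *Atp6v1a* was 0.184 ± 0.026 and 0.172 ± 0.015 (SD, n = 3 each), with overlapping groups for both. The ratio of *Atp6v1d* to *Atp6v1a* was 0.379, 0.327 and 0.246 in saline and 1.09, 0.859 and 0.974 in microbead retinas, with a mean 3.08 times as high. That of *Atp6v1g2* to *Atp6v1a* was 0.674, 0.774 and 0.643 in saline and 3.22, 2.75 and 3.46 in microbead retinas, a mean 4.51 times as high. Neither of these ratios overlapped between the groups. That separation was fixed in advance, since the numerator genes were higher and *Atp6v1a* lower in every microbead retina than in every saline retina. These 2 ratios therefore restate the single-gene results.

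Per length, the order of the G isoforms differed between the groups. *Atp6v1g2* made up 24.5%, 32.6% and 31.1% of the RPKM of both G genes in saline retinas and 53.0%, 58.5% and 58.7% in microbead retinas. The mean share was 29.4 ± 4.34% and 56.7 ± 3.26% (SD, n = 3 each), without overlap. Of *Atp6v1g1*, 7.34% of the 100-base stretches of its transcripts also occur in transcripts of other loci, so its reads are less certain than those of *Atp6v1g2*, for which the share is 0%.

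**Figure D3:**
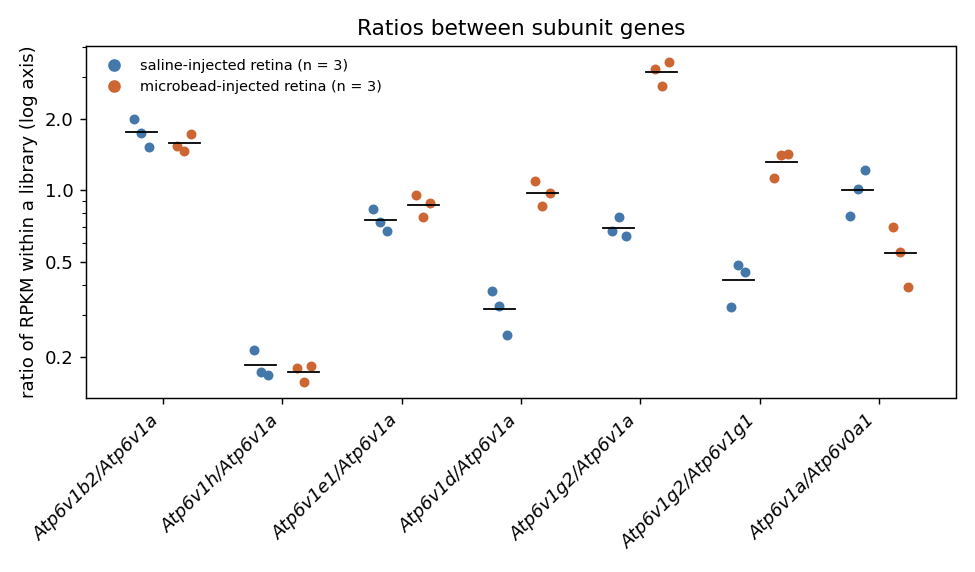
Ratio of the RPKM of 2 subunit genes within each library (log axis), with 3 saline-injected retinas in blue, 3 microbead-injected retinas in orange and bars at the group means. The ratios of *Atp6v1b2*, *Atp6v1h* and *Atp6v1e1* to *Atp6v1a* overlap between the groups, those of *Atp6v1d* and *Atp6v1g2* to *Atp6v1a* do not, and *Atp6v1a* to *Atp6v0a1* is lower in the microbead retinas.

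In the V0 sector, 0 of 8 tested genes passed edgeR's threshold, 1 had an unadjusted p-value under 0.05, and 0 passed in DESeq2 or limma-voom. That gene was *Atp6v0b*, which encodes the c″ subunit of the proton-carrying ring. It was at 186, 164 and 199 CPM in saline and 351, 186 and 278 CPM in microbead retinas, overlapping through microbead replicate 2 (log2 fold change 0.57, SE 0.23, edgeR adjusted p = 0.128). *Atp6v0c*, which encodes the c subunit of the same ring, was at 95.8 to 137 and 74.0 to 118 CPM (log2 fold change -0.24, 95% interval -0.73 to 0.25), and 7.84% of its 100-base stretches occur in other loci, its pseudogenes among them.

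The a subunit carries the path by which protons reach and leave the ring, and its isoforms differ by organelle. *Atp6v0a1*, the isoform of neurons and synaptic vesicles, was at 408, 412 and 501 CPM in saline and 383, 416 and 517 CPM in microbead retinas. The groups interleaved, and the log2 fold change was -0.01 (95% interval -0.42 to 0.41, edgeR adjusted p = 0.986). *Atp6v0a2*, found on Golgi and endosomes, was at 56.8, 56.4 and 53.3 CPM in saline and 40.1, 47.9 and 44.1 CPM in microbead retinas. These groups did not overlap, yet the difference missed the threshold (log2 fold change -0.33, SE 0.16, edgeR adjusted p = 0.183). *Atp6v0a1* made up 89.0 ± 1.42% and 91.0 ± 1.22% of the RPKM of both (SD, n = 3 each), with overlap. The RPKM ratio of *Atp6v1a* to *Atp6v0a1*, a V1 gene against a V0 gene, was 0.776, 1.01 and 1.22 in saline and 0.699, 0.550 and 0.393 in microbead retinas, without overlap.

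*Atp6v0d1*, whose product joins the rotor shaft to the ring, was at 176, 200.5 and 248 CPM in saline and 239, 143 and 195 CPM in microbead retinas (log2 fold change -0.11, 95% interval -0.62 to 0.39). *Atp6v0e2*, the brain isoform of the small e subunit, was the highest member per length, at 202 ± 34.0 RPKM in saline and 169 ± 19.4 RPKM in microbead retinas (SD, n = 3 each). Its CPM did not overlap at 438, 430.4 and 574 CPM in saline and 429.3, 349 and 429.7 CPM in microbead retinas, with a log2 fold change of -0.26 (edgeR adjusted p = 0.386). Its paralog *Atp6v0e* was at 4.11 ± 0.88 and 3.84 ± 0.71 RPKM (SD, n = 3 each; log2 fold change -0.09), and *Atp6v0e2* made up at least 97.3% of the RPKM of both in every library.

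Isoforms known from other tissues were at or near the limit of detection. *Atp6v1b1*, of kidney intercalated cells, had 2 to 9 counts, *Atp6v1c2* 0 to 10, *Atp6v1e2* 0 to 4 and *Atp6v0d2*, of osteoclasts, 0 to 7 counts per library. They did not pass the filter on low counts, and a difference could not be detected at this depth, where 3 counts correspond to 0.0622 CPM in the deepest and 0.217 CPM in the shallowest library. The kidney isoform *Atp6v0a4* had 39, 34 and 18 counts in saline and 0, 13 and 11 in microbead retinas (log2 fold change -0.49, 95% interval -2.52 to 1.54, edgeR adjusted p = 0.751), and it shares exon sequence with its neighbor on the same strand.

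Neither accessory subunit passed the threshold of edgeR, DESeq2 or limma-voom, and 0 of the 2 had an unadjusted p-value under 0.05. *Atp6ap1* (Ac45) assists assembly and targeting, and was at 239, 253 and 343 CPM in saline and 345, 245 and 273 CPM in microbead retinas (log2 fold change 0.05, 95% interval -0.42 to 0.52). *Atp6ap2*, also known as the prorenin receptor, was at 163, 196 and 284 CPM in saline and 188, 139 and 127 CPM in microbead retinas (log2 fold change -0.50, SE 0.24, edgeR adjusted p = 0.189). Its groups overlapped through saline replicate 1 and microbead replicate 1.

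Of the 11 cathepsin genes tested, 0 passed the threshold of edgeR, 0 had an unadjusted p-value under 0.05, and 0 passed in DESeq2 or limma-voom. Their median log2 fold change was -0.01, and they ranged from -0.46 for *Ctsc* to 0.74 for *Ctsk*. *Ctsb*, a cysteine protease and the highest cathepsin by CPM, was at 578, 492 and 705 CPM in saline and 678, 541 and 538 CPM in microbead retinas (log2 fold change -0.01, 95% interval -0.45 to 0.43). *Ctsl*, a cysteine endopeptidase, was at 126 to 184 and 122 to 208 CPM (log2 fold change 0.01). *Ctsz*, a cysteine carboxypeptidase, was at 65.2, 40.4 and 53.0 CPM in saline and 66.3, 45.6 and 59.8 CPM in microbead retinas (log2 fold change 0.12, 95% interval -0.38 to 0.61). In each of these the groups overlapped widely.

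*Ctsd*, the main lysosomal aspartic protease, was at 231, 184 and 285 CPM in saline and 323, 235 and 241 CPM in microbead retinas (log2 fold change 0.19, 95% interval -0.29 to 0.67). In GENCODE vM21, 30.2% of its 100-base stretches occur in an overlapping transcript on the same strand. The counts were made with the earlier vM12, and they hold no entry under the vM21 name of the overlapping gene. Whether this overlap affected the counts of *Ctsd* was not tested. *Ctsa*, a serine carboxypeptidase that protects β-galactosidase and neuraminidase in the lysosome, was at 110, 98.1 and 118 CPM in saline and 139, 114 and 136 CPM in microbead retinas (log2 fold change 0.26, SE 0.17, edgeR adjusted p = 0.323). *Ctse*, the other aspartic cathepsin, had 0 to 14 counts and was not tested.

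Of the other cysteine cathepsins, *Ctsc*, the dipeptidyl peptidase that activates granule serine proteases, was at 23.4, 13.6 and 20.5 CPM in saline and 16.1, 13.9 and 11.8 CPM in microbead retinas (log2 fold change -0.46, edgeR adjusted p = 0.237). *Ctsk*, known from osteoclasts, was at 1.09, 1.08 and 0.456 CPM in saline and 1.44, 1.59 and 1.36 CPM in microbead retinas (log2 fold change 0.74, SE 0.49, edgeR adjusted p = 0.334). Neither *Ctsk* nor the more abundant *Ctsf* overlapped between the groups, the latter at 177 to 235 and 133 to 168 CPM (log2 fold change -0.34, edgeR adjusted p = 0.238). *Ctsh* and *Ctso* had log2 fold changes of -0.21 and -0.18, with overlapping groups.

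*Ctss*, the cathepsin of microglia and other antigen-presenting cells, varied more between libraries of a group than between the groups. It was at 94.7, 20.1 and 28.7 CPM in saline and at 57.0, 39.2 and 18.6 CPM in microbead retinas (log2 fold change -0.32, SE 0.56, edgeR adjusted p = 0.735). The sum of the 11 microglia markers was 230, 63.6 and 95.8 CPM in the same saline and 130, 121 and 54.5 CPM in the same microbead libraries. *Ctss* stood at 0.2998 to 0.439 times the marker sum in every library, and both were highest in saline replicate 1. This range holds for the sum and was not examined for single markers. Of the 11 microglia genes, 0 passed the threshold of edgeR or limma-voom, 3 passed in DESeq2 and 3 had an unadjusted p-value under 0.05. By sign, 7 of the 11 were negative and 4 positive. *Cx3cr1*, *Tmem119* and *Csf1r* had log2 fold changes of -1.32, -1.32 and -1.22 (edgeR adjusted p = 0.0574, 0.0692 and 0.0542). *C1qa*, *C1qb* and *C1qc*, large parts of the sum, had 0.01, 0.05 and -0.36, so the sum does not stand for each marker. *Ctss* was chosen after its values were seen, and the part of microglia in it was not tested further.

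**Figure D4:**
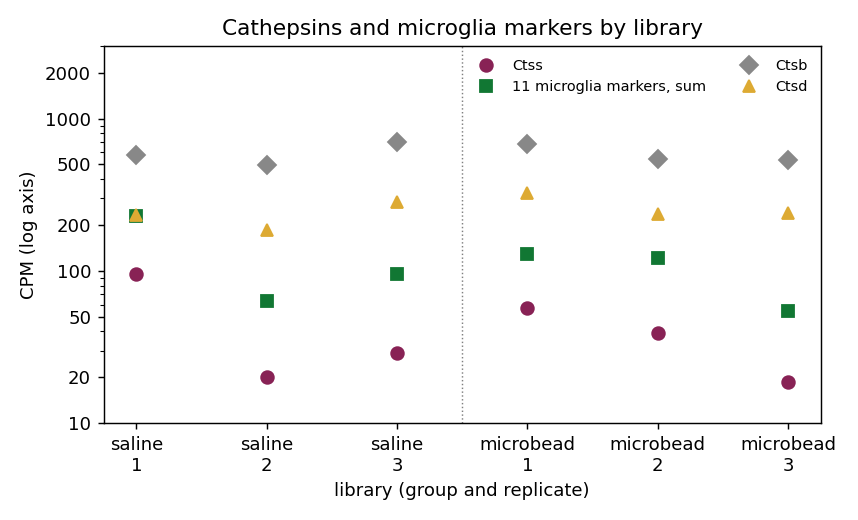
Level (CPM, log axis) of *Ctss*, *Ctsb* and *Ctsd* and the summed CPM of 11 microglia markers in each of the 6 libraries, saline to the left and microbead to the right of the dotted line. *Ctss* and the marker sum are both highest in saline replicate 1 (94.7 and 230 CPM) and lowest in microbead replicate 3 (18.6 and 54.5 CPM), whereas *Ctsb* stays between 492 and 705 CPM.

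*Lamp1* was at 208, 210 and 278 CPM in saline and 253, 204 and 238 CPM in microbead retinas, with means of 232 ± 39.9 and 232 ± 24.9 CPM (SD, n = 3 each; log2 fold change -0.0009, 95% interval -0.42 to 0.41). *Lamp2*, which also serves chaperone-mediated autophagy, was at 88.4, 79.6 and 115 CPM and at 83.4, 84.9 and 64.8 CPM (log2 fold change -0.28, edgeR adjusted p = 0.366). Neither gene separated the groups, and of the 2, 0 passed in DESeq2 or limma-voom or had an unadjusted p-value under 0.05.

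Per length of exon, the tested members spanned a wide range of levels. The mean over the 6 libraries was 186 ± 30.6 RPKM for *Atp6v0e2*, followed by *Atp6v0d1* (112 ± 21.9), *Atp6v0b* (111 ± 35.2), *Ctsd* (106 ± 20.4), *Atp6v1g1* (99.1 ± 24.2) and *Ctsb* (97.3 ± 14.0 RPKM, SD, n = 6 each). The libraries of *Atp6v0e2* (146.7 to 241 RPKM) did not overlap those of *Atp6v0d1*, next in the order, but did overlap those of *Atp6v0b* (80.0 to 171 RPKM). From *Atp6v0d1* to *Atp6v1c1* (24.3 ± 4.96 RPKM) each gene overlapped its neighbor in the order. *Atp6v1h* (9.20 ± 3.86 RPKM), *Lamp2* (8.998 ± 1.70) and *Atp6v0a2* (7.40 ± 1.02 RPKM, SD, n = 6 each) came next, without overlap between *Atp6v1c1* and *Atp6v1h*, and from there to *Ctsc* (2.85 ± 0.78 RPKM) each gene again overlapped its neighbor. These means pool both groups. All annotated exons enter the length, so genes with long alternative exons, such as *Atp6v1h* with 9746 and *Lamp2* with 9552 exon bases, are set low on this scale.

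**Figure D5:**
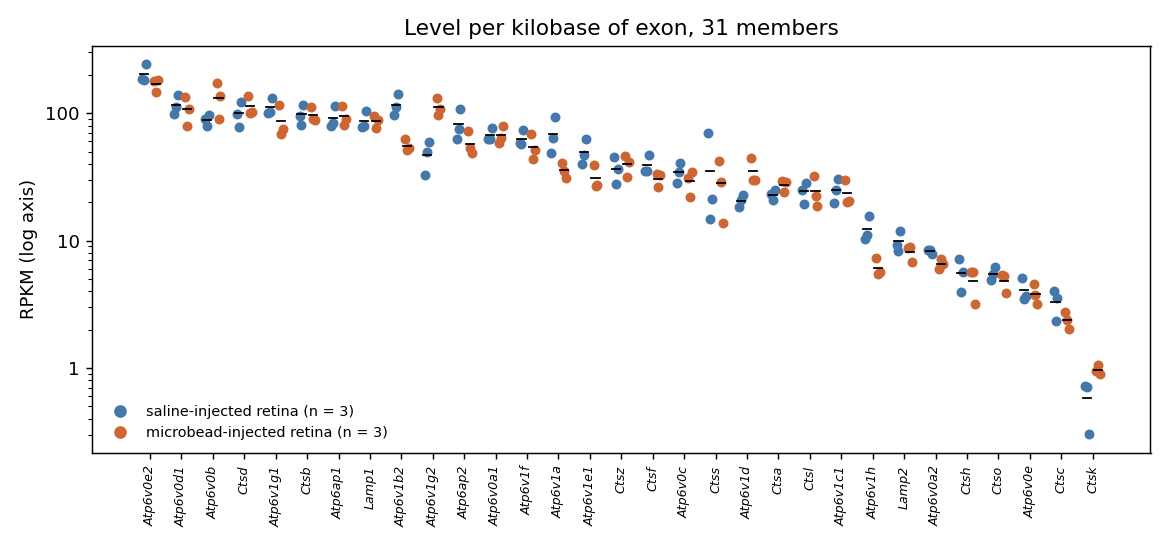
Level per kilobase of exon (RPKM, log axis) of 31 members in each library, ordered by their mean, with 3 saline-injected retinas in blue, 3 microbead-injected retinas in orange and bars at the group means. Levels run from about 186 RPKM (*Atp6v0e2*) to 0.774 RPKM (*Ctsk*), and *Atp6v0a4*, which was at 0 in 1 library, is left out.

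Other genes of the pathway were taken from lists of known lysosomal and V-ATPase genes. Of 11 V-ATPase relatives outside the name rule, 1 rose and 1 fell in edgeR, 18.2% against 12.8% of all tested genes, while limma-voom called 1 and DESeq2 called 4. *Rogdi* was at 105, 93.0 and 89.99 CPM in saline and 325, 274 and 337 CPM in microbead retinas, without overlap, and rose (log2 fold change 1.70, SE 0.17, edgeR adjusted p = 0.00289) more than any member. *Wdr7* was at 92.9, 120 and 154 CPM in saline and 66.0, 78.0 and 74.3 CPM in microbead retinas and fell (log2 fold change -0.75, SE 0.21, edgeR adjusted p = 0.0445). Both belong to the rabconnectin complex that helps V1 and V0 assemble. Of 33 other lysosomal hydrolases tested, 15.2% were called: 3 rose (*Dpp7*, *Tpp1* and *Ppt2*) and 2 fell, *Pla2g15* among them. *Dpp7*, a dipeptidyl peptidase, was at 25.6, 20.03 and 16.9 CPM in saline and 36.8, 29.2 and 43.4 CPM in microbead retinas (log2 fold change 0.81). Its groups did not overlap. Of 7 hydrolase activators and cathepsin inhibitors, only *Psap*, the saposin precursor, passed. It was at 893, 912 and 1320 CPM in saline and 574, 558 and 649 CPM in microbead retinas (log2 fold change -0.81, edgeR adjusted p = 0.0341). Of 20 other lysosomal membrane proteins, only *Mcoln1*, the lysosomal cation channel TRPML1, passed (log2 fold change 0.74, 51.7 to 62.8 CPM in saline and 80.6 to 117 CPM in microbead retinas), and of 9 genes that sort lysosomal enzymes, only *Gnptg*, a subunit of the phosphotransferase that makes the mannose-phosphate tag, passed (log2 fold change 0.64).

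For the MiT/TFE transcription factors, 0 of the 3 tested and, for the Ragulator and Rag GTPases, 0 of the 10 tested passed in edgeR, DESeq2 or limma-voom, and 0 and 3 genes had an unadjusted p-value under 0.05. *Tfeb* was at 8.98 to 10.6 CPM in saline and 6.12 to 7.34 CPM in microbead retinas, without overlap (log2 fold change -0.48, edgeR adjusted p = 0.185). *Tfe3*, the most abundant of the 3, did not overlap in the other direction, at 46.4 to 53.3 CPM in saline and 53.7 to 63.1 CPM in microbead retinas (log2 fold change 0.23, edgeR adjusted p = 0.358), and such separation was seen for 37.8% of all tested genes. Median log2 fold changes were 0.01 for the relatives, -0.02 for the hydrolases, -0.25 for the activators and inhibitors, 0.03 for the membrane proteins, 0.15 for the sorting genes, 0.04 for the transcription factors and -0.09 for the Ragulator and Rag genes, beside -0.03 for all tested genes.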

How the data were processed

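The libraries of poly(A) RNA used here came from 3 saline and 3 microbead retinas. The paper's figure legend for its RNA sequencing gives a larger number of retinas per group. Per the submitters' processing notes and the study's methods, the authors aligned reads with STAR 2.5.3a to GRCm38.p5 with the GENCODE vM12 annotation and counted them per gene with featureCounts 1.15.2, and they deposited these counts without normalization. How multi-mapped reads and strand were handled is not given in the sources used here. The deposited table also holds the authors' DESeq2 comparison (a mean signal, a log2 fold change, a linear fold change or ratio, p-values and a mark of calls), none of which was used. No row lacked a gene name.

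The filter on low counts was filterByExpr (a minimum count of 10 and a total of 15) and the scaling TMM. Groups were tested in edgeR 4.0.16 under R 4.3.3 by the two-sided quasi-likelihood test, adjusted by Benjamini-Hochberg over 17707 genes, with a threshold of 0.05. The standard error is the log2 fold change divided by the square root of the F statistic. RPKM are CPM per kilobase of the union of exons in GENCODE vM21 (99.7% of tested genes matched), and shared stretches were counted in its transcripts. The alternatives were the replicate number as a block, limma-voom (limma 3.58.1), DESeq2 1.42.0, no filter, a filter of 10 counts in each library, RLE or upper-quartile scaling, scaling without mitochondrial genes, thinning to equal depth, a threshold of 0.01 and each library left out. The offset for GC content and exon length (natural splines with 5 degrees of freedom each) was chosen after seeing the data. The edgeR, DESeq2 and limma-voom fits were tested on simulated data. The offset fit was tested on data simulated with a trend on GC content only, so its correction for length was not tested.

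Library totals lay between 13574949 and 46481382 counts, where 3 counts are 0.217 and 0.0622 CPM, covering counting error only. Between libraries of a group, chi-square per degree of freedom was at least 20.1, far above sampling noise, so all were kept as separate samples. The members and lists were chosen with earlier results of these data known. Named in full were called members, the 2 largest changes and the 2 highest levels of each class, paralog pairs, and up to 2 called genes of each list. *Ctss*, *Ctsl*, *Ctsf*, *Ctsh*, *Ctso*, *Atp6v0c*, *Atp6v1f*, *Tpp1*, *Ppt2*, *Pla2g15*, *Tfeb*, *Tfe3* and overlapping neighbors were named after their values were seen. Some genes are not reported here.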

Additional observations from a re-analysis of the deposited data

How the results depend on the processing

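The 5 V1 calls, with their directions, held under RLE and upper-quartile scaling, scaling without mitochondrial genes, at least 10 counts in every library, limma-voom and thinning to equal depth. DESeq2, no filter and the GC and length offset called 6 members, these 5 and *Atp6v1e1*. An adjusted p-value under 0.01 left 0 members, 0 higher and 0 lower. Without each library in turn the number of called members ran from 0 to 5 (0 to 1 higher, 0 to 4 lower), and that of all genes from 46 without microbead replicate 3 to 2621 without saline replicate 1 (26 to 1356 higher, 20 to 1265 lower). These fits hold fewer samples. Beyond that the cause was not tested. Over all genes, 3720 were called without a filter (1511 higher, 2209 lower), 3582 in DESeq2 (1883 higher, 1699 lower) and 87 at 0.01 (55 higher, 32 lower), against 2261. Without a filter the median log2 fold change of all genes was -0.23.

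With the replicate number as a block, 2 members were called, 1 higher (*Atp6v1g2*) and 1 lower (*Atp6v1b2*), and 905 genes in all (480 higher, 425 lower). Deviations of same-numbered libraries correlated at -0.02, 0.19 and -0.0035, and not every library correlated best with its own number. By the paper's methods both eyes of a mouse received the same injection, so same-numbered libraries are not the fellow eyes of a mouse. So few libraries cannot decide whether they were paired in another way.

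Signs were compared between fits for the members named in full, not for all tested members. Some of those compared changed sign, none past the threshold, and all but *Atp6v0a4* (-0.49) had a log2 fold change near 0. *Atp6ap1* went to -0.0038 without a filter and -0.053 with the offset. *Atp6v0a1* went to 0.01 under RLE, without mitochondrial genes (0.014) and in DESeq2 (0.0135), 0.038 under upper quartile, 0.0056 with at least 10 counts, 0.018 thinned and 0.11 with the offset. *Atp6v0e* went to 0.027 thinned. *Ctsb* went to 0.0054 under RLE, 0.030 under upper quartile, 0.0059 without mitochondrial genes, 0.0055 in DESeq2, 0.0054 thinned and 0.10 with the offset. *Lamp1* went to 0.0187 under RLE, 0.043 under upper quartile, 0.019 without mitochondrial genes, 0.012 with at least 10 counts, 0.0188 in DESeq2, 0.0058 in limma-voom, 0.0067 with the replicate block and 0.027 thinned. With each library left out, the ranges were -0.11 to 0.23 for *Atp6ap1*, -0.15 to 0.094 for *Atp6v0a1*, -1.10 to 0.13 for *Atp6v0a4*, -0.31 to 0.078 for *Atp6v0d1*, -0.25 to 0.093 for *Atp6v0e*, -0.30 to 0.077 for *Atp6v1c1*, -0.14 to 0.13 for *Ctsb*, -0.048 to 0.29 for *Ctsz* and -0.077 to 0.15 for *Lamp1*.

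The depth of the microbead libraries limits genes of few counts. In the shallowest library 3 counts are 0.217 CPM. The filter on low counts also left out genes above that level, such as *Atp6v1b1* at 0.463 CPM in microbead replicate 1. For the rest, 3 libraries a group are the limit.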
